A study of Danio rerio with 55 samples.

Results

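The genes described here are the chromosomal neighbours of ezh2 (ENSDARG00000010571), the gene mutated in the zebrafish study. They were chosen by position, as the 50 rows before and the 50 rows after ezh2 in the gene order of the RNA count tables, which are built on GRCz10. The gene bmi1a (ENSDARG00000006010), 5 rows before ezh2 and itself a Polycomb gene, was left out, so that 99 of 32266 genes remained, 49 before and 50 after ezh2. Gene symbols are printed as the name table gives them, many of them in capitals. The row order was checked against the RefSeq gene table of a later zebrafish assembly (GRCz12tu). Of the 99 genes, 60 could be matched by symbol, and 59 of these lay on the chromosome of ezh2, within 100 genes of it and on the side that the row order gives.

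RNA was sequenced from pools of whole wild-type embryos and of embryos without maternal and zygotic Ezh2, called MZezh2 mutants. The mutants carried the nonsense allele hu5670, which places a premature stop codon in the catalytic SET domain. They were obtained by crossing females and males whose germ line was mutant after germ cell transplantation, while most other cells of these parents were wild type. Wild-type embryos came from fish with a wild-type germ line out of the same transplantations, and both genotypes had a mixed TU and TLF background. Libraries were made at 0 hours post fertilization (hpf), when the embryo holds maternal RNA, at 3.3 hpf, around activation of the zygotic genome, and at 24 hpf. Wild type was sequenced in 5, 5 and 6 libraries and mutants in 6, 7 and 7 libraries at these stages, in that order. The labels do not tie a library to particular parents, so that p-values measure the spread between these libraries.

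Ezh2 is the catalytic subunit of Polycomb Repressive Complex 2 (PRC2), which methylates lysine 27 of histone H3 and so keeps developmental genes repressed. PRC1, which holds Bmi1 as a subunit, acts with PRC2 at many of the same genes. Sequence next to a mutated gene is inherited with it, so that the genotype at ezh2 and the sequence linked to it cannot be told apart in this design.

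Genes received between 5410065 and 24041447 counts per library at 0 hpf, between 8126614 and 23479855 at 3.3 hpf, and between 2736282 and 23394029 at 24 hpf. In both genotypes, replicates 1 and 2 stood apart from the later replicates on the first principal component at 0 and 3.3 hpf. At 24 hpf they lay at the same end, with replicate 3 next to them and, in wild type, nearer to them than to replicates 4 to 6. Values within these sets of libraries are given for some genes, and the calls lost within them are counted in the closing section. Markers of egg and germ line summed to 3354 to 5922 CPM (counts-per-million of the scaled library size) over the libraries at 0 hpf and to 19.03 to 35.49 CPM at 24 hpf, while muscle markers summed to 2323 to 5000 CPM at 24 hpf. Of the 9 egg and germ line markers, 9, 9 and 6 were tested at the 3 stages and none was called. Ovarian follicle cell markers summed to 1.48 to 2.58 CPM in wild type and to 1.81 to 8.77 CPM in mutants at 0 hpf. Of these 8 markers, 2 could be tested at that stage and neither was called. Their log2 fold changes, mutant over wild type, were 1.38 ± 0.74 (SE, adjusted p = 0.376, edgeR) for FOXL2 and 1.93 ± 1.09 (adjusted p = 0.402) for gsdf. Markers of blood summed to 0.224 to 1.21 CPM and 0.259 to 5.98 CPM at 0 hpf, with none of 5 testable. Called markers of other lists were tbxta at 0 hpf, tubb5 at 3.3 hpf and hbaa1 at 24 hpf, all higher in mutants. Blastula markers summed to 1.04 to 2.00 CPM in wild type and 2.81 to 27.9 CPM in mutants at 0 hpf, and nervous system markers to 4.44 to 25.5 CPM and 21.4 to 72.3 CPM at 3.3 hpf. No marker of the lists was at 0 in every library of a stage, and the part of other cell types in the results was not tested.

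The mutated gene itself was read first in every library. At 0 hpf ezh2 was at 198, 203, 409, 411 and 401 CPM in wild-type replicates 1 to 5, and at 2.85, 4.38, 269, 3.56, 321 and 364 CPM in mutant replicates 1 to 6. At 3.3 hpf it was at 243, 242, 403, 512 and 532 CPM in wild type and at 3.81, 4.10, 254, 5.86, 5.75, 191 and 190 CPM in mutant replicates 1 to 7. At 24 hpf it was at 146, 127, 124, 214, 211 and 216 CPM in wild type and at 42.0, 39.2, 48.3, 34.9, 124, 102 and 104 CPM in mutants. Mutant libraries thus fell into low and high levels at every stage, and high ones overlapped wild type, at 3.3 hpf only in replicate 3 and at 24 hpf only in replicate 5. Over all libraries the level of ezh2 therefore did not check the labels of the mutant libraries. Within replicates 1 and 2, mutants lay below wild type at every stage. Within the later replicates, mutants reached at most 364 CPM at 0 hpf and wild type at least 401 CPM. At 3.3 hpf these values were 254 and 403 CPM. At 24 hpf only mutant replicate 5 overlapped, with wild-type replicate 3. Gene counts do not show the mutated codon, and whether the low and high mutant libraries differ in allele, parents or label was not tested, so that mutant means here the libraries labelled so. With all libraries, the log2 fold change of ezh2, mutant over wild type, was −1.01 ± 1.08 (SE, adjusted p = 0.737, edgeR) at 0 hpf, −2.05 ± 1.06 (adjusted p = 0.36) at 3.3 hpf and −1.29 ± 0.31 (adjusted p = 0.124) at 24 hpf. Without the mutant libraries at 100 CPM of ezh2 or more, it was −6.50, −6.30 and −2.08 at the respective stages. The libraries left out were mutant replicates 3, 5 and 6 of the earliest stage, replicates 3, 6 and 7 of the next and replicates 5 to 7 of the last. This setting was chosen after seeing the data, and results that depend on it are given with and without these libraries. The levels above are from unstranded counts. With all libraries and counts of the majority strand, the log2 fold change of ezh2 was −1.74 ± 0.97 (adjusted p = 0.41) at 0 hpf. It was −2.69 ± 0.92 (adjusted p = 0.127) at 3.3 hpf and −1.51 ± 0.20 (adjusted p = 0.0014) at 24 hpf.

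**Figure D1:**
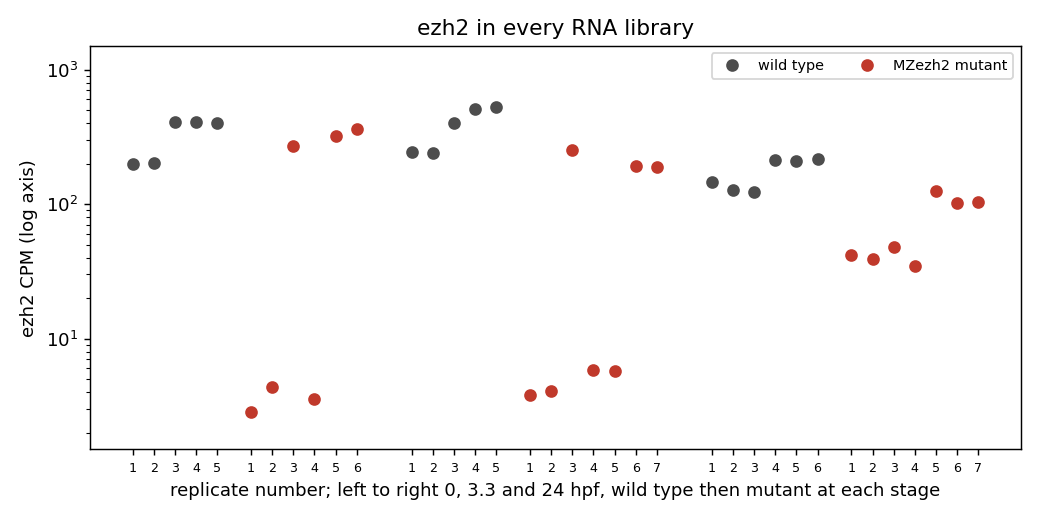
ezh2 level in CPM (log axis) in each of the 36 RNA libraries, by replicate number, with wild type in grey and MZezh2 mutants in red. Mutant libraries sit between 2.85 and 4.38 CPM or between 269 and 364 CPM at 0 hpf, while wild type lies between 198 and 411 CPM.

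Of the 99 neighbours, 58 had enough counts to be tested at all 3 stages, 6 at 2 stages, 15 at 1 stage and 20 at none. At 0, 3.3 and 24 hpf, 64, 64 and 73 were tested. The filter keeps a gene that reaches the minimum in as many libraries as the smaller genotype has, so that a gene read mainly in mutants passes through the mutants. Only 1 neighbour had no count in any of the 36 libraries. A gene was called when its adjusted p was below 0.05 over all genes tested and its log2 fold change was at least 1 in size.

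At 0 hpf, 4 neighbours were called, with ptgdsb.1, PREX2 and NKTR higher and si:dkey-117j14.8 lower in mutants. Called genes made up 6.25% of the 64 neighbours tested, against 6.23% of all 16489 genes tested, so the share was near the background in this fit. In some other fits the share was higher than the background, at 18.2% against 10% with DESeq2. In 1 fit of all libraries, which tested 83 neighbours, it was 24.1% against 12%. With a batch term it was 12.5% against 8.64%, and with the replicate block 10.9% against 6.17%. It stayed near the background with DESeq2 size factors in edgeR (6.25% against 6.26%) and with counts of the majority strand (6.35% against 5.97%). Over all genes 6.06% were called higher and 0.17% lower. At 3.3 hpf, 7 neighbours were called, and 10.9% of 64 compares with 6.06% over 16897 genes. NETO1, ptgdsb.1, tnfrsf11a, PREX2 and NKTR were higher and si:dkey-117j14.8 and MYD88 lower, with a background of 5.88% higher and 0.178% lower. At 24 hpf, 3 neighbours were called, which is 4.11% of 73 against 0.324% over 18806 genes. These were msrb2 and COMMD3, which were higher, and CMBL, which was lower, with a background of 0.223% higher and 0.101% lower. In these pooled embryos, fewer cells of a type and less RNA per cell cannot be told apart.

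PREX2 (ENSDARG00000071692), 15 rows after ezh2, encodes an exchange factor that activates the GTPase Rac. At 0 hpf it was at 0.730, 0.765, 1.11, 1.79 and 0.888 CPM in wild type and at 33.0, 55.6, 25.1, 38.8, 29.2 and 30.5 CPM in mutants, so that every mutant library lay above every wild-type library. The log2 fold change was 5.07 ± 0.35 (SE, adjusted p = 1.77e-05, edgeR), a 33.7-fold difference. By 3.3 hpf the level was 1.51, 9.75, 1.57, 1.55 and 0.900 CPM in wild type and 36.6, 56.1, 32.0, 38.9, 41.1, 31.8 and 36.5 CPM in mutants. Again the genotypes did not overlap, although wild-type replicate 2 stood apart from the other wild-type libraries, and the log2 fold change was 3.63 ± 0.55 (adjusted p = 0.00127). Without wild-type replicate 2 the adjusted p was 9.61e-07 and the log2 fold change 4.81. The call was lost within replicates 1 and 2 (log2 fold change 3.05, adjusted p = 0.164). It held within the later replicates (log2 fold change 4.76, adjusted p = 2.58e-05). At 24 hpf PREX2 lay between 17.4 and 26.95 CPM in wild type, with a median of 23.4, and at 19.5 to 35.3 CPM in mutants, with a median of 23.5, and the log2 fold change was 0.16 (95% interval −0.20 to 0.52). The genotypes overlapped at 24 hpf, and the difference between genotypes was smaller at 24 hpf than at 3.3 hpf by 3.38 ± 0.50 on the log2 scale (interaction, adjusted p = 1.93e-05).

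The prostaglandin D synthase gene ptgdsb.1 (ENSDARG00000027088), 13 rows before ezh2, belongs to the lipocalin-type enzymes and lies next to its copy ptgdsb.2, so that counting of reads between these copies is uncertain. At 0 hpf it was at 0.0456, 0.425, 0.925, 0.895 and 1.53 CPM in wild type and at 6.73, 22.8, 8.31, 14.0, 59.1 and 22.5 CPM in mutants. Levels at 3.3 hpf were 0.236, 0.612, 1.39, 2.19 and 2.06 CPM in wild type and 6.71, 19.9, 9.09, 8.38, 9.98, 35.6 and 17.6 CPM in mutants. The genotypes did not overlap at either stage, and the mutant libraries varied widely among themselves. The log2 fold change was 4.91 ± 0.81 (adjusted p = 0.00294) at 0 hpf and 3.62 ± 0.62 (adjusted p = 0.00263) at 3.3 hpf. The call at 0 hpf held within both sets of replicates (adjusted p = 0.0382 and 0.0132). At 3.3 hpf it was lost within replicates 1 and 2 (log2 fold change 4.97, adjusted p = 0.0764) and held within the later replicates (adjusted p = 0.00952). At 24 hpf wild type lay between 10.0 and 36.7 CPM and mutants between 12.3 and 55.4 CPM, with a log2 fold change of 0.43 (95% interval −0.34 to 1.20). The difference fell by 3.20 ± 0.79 on the log2 scale from 3.3 to 24 hpf (adjusted p = 0.00995).

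NETO1 (ENSDARG00000071596), 29 rows before ezh2, encodes an auxiliary subunit of glutamate receptors in mammals. At 3.3 hpf it was at 0.614, 0.153, 0.648, 0.775 and 0 CPM in wild type and at 4.80, 4.15, 4.60, 2.84, 2.55, 3.29 and 3.27 CPM in mutants. All mutant libraries lay above all wild-type libraries, with a log2 fold change of 3.03 ± 0.58 (adjusted p = 0.0051). This call was lost within replicates 1 and 2 (log2 fold change 3.52, adjusted p = 0.126). It held within the later replicates (log2 fold change 2.77, adjusted p = 0.0326). At 0 hpf the genotypes did not overlap either, with at most 1.28 CPM in wild type and at least 1.33 CPM in mutants, but the log2 fold change of 2.20 ± 0.69 did not pass (adjusted p = 0.0837). It passed in 5 of 10 alternatives, among them DESeq2 (adjusted p = 0.00815) and the batch term (adjusted p = 0.00881), with adjusted p from 0.00597 to 0.121 over the 10. At 24 hpf both genotypes read it, at 1.34 to 4.69 CPM in wild type and between 2.600 and 5.54 CPM in mutants. The genotype difference was 2.86 ± 0.70 lower on the log2 scale than at 3.3 hpf (adjusted p = 0.00977).

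The receptor gene tnfrsf11a (ENSDARG00000087804), 9 rows after ezh2, encodes RANK, through which osteoclast formation is induced in mammals. The levels at 3.3 hpf were 0.425, 1.33, 5.18, 2.58 and 2.70 CPM in wild type and 2.03, 21.6, 11.02, 15.0, 19.0, 16.8 and 8.67 CPM in mutants. Mutant replicate 1 lay among the wild-type libraries and the other mutants lay above them. The log2 fold change was 2.48 ± 0.62 (adjusted p = 0.0282). This call was lost when any 1 of 6 of the 12 libraries was left out, with adjusted p up to 0.0689, and without the mutant libraries of high ezh2 (adjusted p = 0.0976). It was also lost within replicates 1 and 2 (log2 fold change 3.76, adjusted p = 0.22). Within the later replicates it held (log2 fold change 2.03, adjusted p = 0.00955). At 24 hpf tnfrsf11a was not called, with log2 fold changes of −0.31 to 0.06 on leaving out 1 library at a time. At 0 hpf the same gene had a log2 fold change of 1.83 (adjusted p = 0.25), with replicates 1 and 2 of wild type at 0.182 and 0.510 CPM and the other wild-type libraries at 3.95 to 7.40 CPM.

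NKTR (ENSDARG00000059097), 42 rows after ezh2, encodes a large protein with a cyclophilin domain that was first described in natural killer cells. At 0 hpf it was at 44.0, 41.7, 54.6, 67.3 and 68.3 CPM in wild type and at 166, 161, 60.6, 80.7, 83.6 and 163 CPM in mutants. Later, at 3.3 hpf, it was at 49.2, 59.6, 61.1, 78.2 and 63.4 CPM in wild type and at 209, 180, 72.2, 82.8, 83.3, 100.9 and 211 CPM in mutants. Replicates 1, 2 and 6 of the mutants at 0 hpf and 1, 2 and 7 at 3.3 hpf had the highest values, and mutant replicate 3 lay within the wild-type range at both stages. The log2 fold change was 1.11 ± 0.29 (adjusted p = 0.0361) and 1.11 ± 0.30 (adjusted p = 0.0398). Both calls were weak, being lost on leaving out any 1 of 6 of 11 libraries at 0 hpf, with adjusted p up to 0.0873, and any 1 of 8 of 12 at 3.3 hpf, with adjusted p up to 0.0965. Within replicates 1 and 2 the log2 fold change was 1.93 at 0 hpf (adjusted p = 0.00634) and 1.85 at 3.3 hpf (adjusted p = 0.0326), but within the later replicates it was 0.66 (adjusted p = 0.317) and 0.74 (adjusted p = 0.267). With the replicate block neither call held (adjusted p = 0.14 and 0.156).

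The gene si:dkey-117j14.8 (ENSDARG00000096926), only 3 rows after ezh2, carries a clone-based name and no function is given for it here. At 0 hpf it was at 3.10, 3.27, 7.96, 3.51 and 5.41 CPM in wild type and at 0.777, 1.00, 1.31, 0.127, 1.02 and 1.24 CPM in mutants. At 3.3 hpf it was at 2.88, 2.35, 7.68, 3.62 and 6.43 CPM in wild type and at 0.822, 0.342, 2.06, 1.22, 1.02, 0.824 and 1.37 CPM in mutants. The genotypes did not overlap at either stage, and the gene fell in mutants with a log2 fold change of −2.32 ± 0.48 (adjusted p = 0.0112) and of −2.07 ± 0.44 (adjusted p = 0.0109). At 0 hpf the call held within replicates 1 and 2 (adjusted p = 0.0466) but not within the later replicates (log2 fold change −2.51, adjusted p = 0.0601). At 3.3 hpf it was lost within replicates 1 and 2 (log2 fold change −2.14, adjusted p = 0.219) and held within the later replicates (adjusted p = 0.00938). The gene had at most 6 counts in any library at 24 hpf and was not tested there.

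MYD88 (ENSDARG00000010169), 28 rows after ezh2, encodes the adaptor of Toll-like and interleukin-1 receptors. At 3.3 hpf it was at 28.1, 30.4, 33.0, 18.6 and 20.4 CPM in wild type and at 12.5, 10.5, 8.36, 6.83, 9.90, 16.7 and 16.7 CPM in mutants, with no overlap. It fell in mutants with a log2 fold change of −1.16 ± 0.26 (adjusted p = 0.0129). At 0 hpf mutant replicates 5 and 6, at 24.4 and 23.7 CPM, lay within the wild-type range of 16.1 to 32.0 CPM, while the other mutants were at 6.45 to 10.9 CPM, and the log2 fold change of −0.83 did not pass (adjusted p = 0.277). Mutant replicates 5 and 6 at 0 hpf, and 6 and 7 at 3.3 hpf, were the highest for MYD88. They were also among the libraries of high ezh2. Mutant replicate 3, also of high ezh2 at both stages, was the lowest mutant at 0 hpf, at 6.45 CPM. At 3.3 hpf it was at 8.36 CPM, above only mutant replicate 4. Without the mutant libraries of high ezh2 the call of MYD88 at 3.3 hpf held (log2 fold change −1.38, adjusted p = 0.0164). At 0 hpf the log2 fold change was then −1.35 and did not pass (adjusted p = 0.0515). Within replicates 1 and 2 and within the later replicates the log2 fold change at 3.3 hpf was −1.33 (adjusted p = 0.093) and −1.01 (adjusted p = 0.11).

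**Figure D2:**
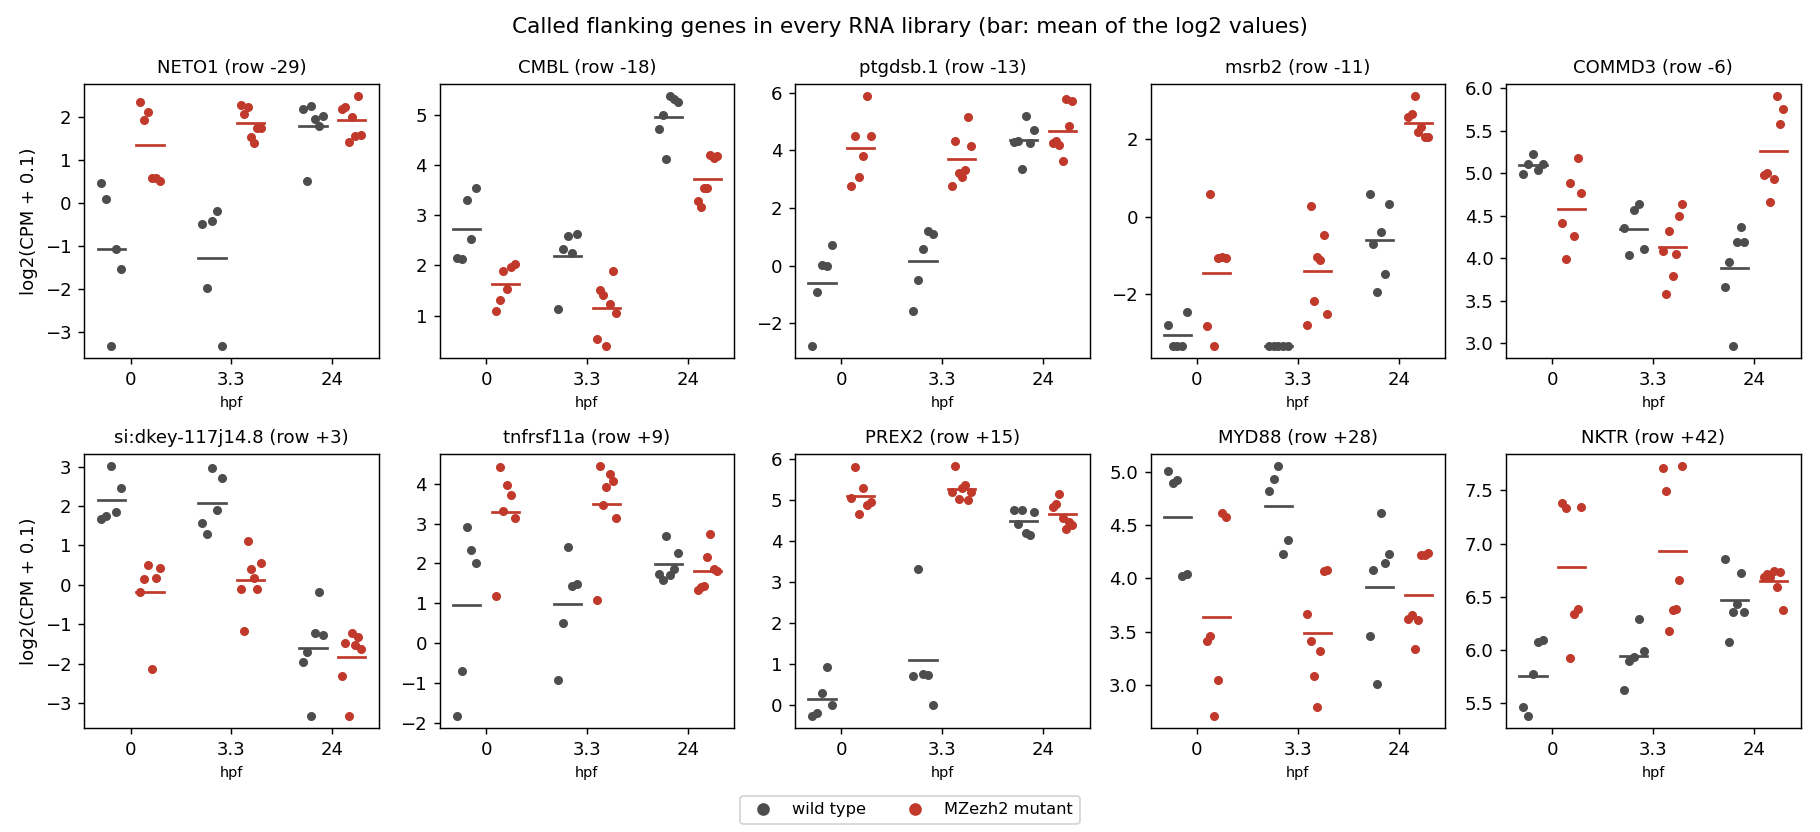
Level of the 10 called neighbours of ezh2 in every library, as log2 of CPM plus 0.1, with wild type in grey, MZezh2 mutants in red and a bar at the mean of the log2 values, each panel on its own scale. PREX2, ptgdsb.1 and NETO1 are higher in mutants at 3.3 hpf, when NETO1 in wild type is at most 0.775 CPM, and overlap between genotypes at 24 hpf, whereas msrb2 and COMMD3 are apart at 24 hpf and CMBL is nearly so.

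All 4 neighbours called at 0 hpf were called in the same direction at 3.3 hpf, which is 100% of the 4 calls at 0 hpf and 57.1% of the 7 calls at 3.3 hpf. Over all genes, 732 were called in the same direction at both stages, which is 71.3% of the 1027 calls at 0 hpf and 71.5% of the 1024 calls at 3.3 hpf. Of those tested at both stages this was 4 of 62 neighbours (6.45%) and 4.53% of 16146 genes. In the edgeR fits of each stage, no neighbour called at 24 hpf was called at an earlier stage. In some alternatives that kept the calls at 24 hpf, CMBL and msrb2 were also called earlier. For CMBL this was at 0 hpf with DESeq2 and the batch term, and at 3.3 hpf with DESeq2. For msrb2 it was at 3.3 hpf with DESeq2 and with no filter on low counts. The test of the difference between 0 and 3.3 hpf called no neighbour of 83 and no gene of 21709 (0%, edgeR), with 3 neighbours and 525 genes at an unadjusted p below 0.05.

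At 24 hpf the called genes all lay before ezh2, 6 to 18 rows away. The first, msrb2 (ENSDARG00000018459), 11 rows before ezh2, encodes a methionine sulfoxide reductase, which repairs oxidized methionine in proteins. It was at 1.39, 0.515, 0.162, 0.655, 0.262 and 1.16 CPM in wild type and at 5.90, 6.16, 8.54, 4.46, 4.87, 4.04 and 4.05 CPM in mutants. Every mutant library lay above every wild-type library, and the gene rose 7.13-fold, with a log2 fold change of 2.83 ± 0.37 (adjusted p = 0.00152). The call was lost within replicates 1 and 2 (log2 fold change 2.65, adjusted p = 0.119) and in 1 fit of all libraries (adjusted p = 0.0754). It held within the later replicates (log2 fold change 3.05, adjusted p = 0.0334). The gene did not pass the filter of the edgeR fits at the earlier stages. It was called higher in mutants at 3.3 hpf with DESeq2, with no filter on low counts and in 1 fit of all libraries. The last of these also called it at 0 hpf. In that fit the genotype difference at 24 hpf minus that at 3.3 hpf was −2.49 ± 1.21 (interaction, adjusted p = 0.325). At 3.3 hpf all 5 wild-type libraries had 0 counts and the 7 mutant libraries had 1, 23, 1, 6, 5, 6 and 1, which is 43 counts in all. Pooled over libraries, this was at least 9.25-fold higher than a floor of 3 counts over the wild-type group allows, with counting error only. These counts were described because they met a rule on the same counts, and the bound leaves out the spread between libraries. The bound is therefore a description and not a test. Mutant replicate 2 held 23 of the counts, and without it the bound was 5.36-fold. At 0 hpf wild-type libraries had at most 1 count and mutants 1, 31, 0, 3, 3 and 4.

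COMMD3 (ENSDARG00000045402), 6 rows before ezh2, encodes a protein of the COMM domain family that takes part in endosomal protein sorting. At 24 hpf it was at 12.6, 15.4, 7.77, 18.1, 20.6 and 18.3 CPM in wild type and at 31.4, 31.9, 25.3, 30.4, 60.0, 47.9 and 53.8 CPM in mutants. The genotypes did not overlap, and COMMD3 rose in mutants (log2 fold change 1.38 ± 0.25, adjusted p = 0.0202). Mutant replicates 5 to 7, the libraries of high ezh2 at this stage, were the highest, and without them the call was lost (log2 fold change 0.94, adjusted p = 0.212). Leaving out wild-type replicate 1, wild-type replicate 2 or mutant replicate 6 also ended the call, with adjusted p of 0.0598, 0.0614 and 0.0509. It held neither within replicates 1 and 2 (log2 fold change 1.17, adjusted p = 0.1) nor within the later replicates (log2 fold change 1.44, adjusted p = 0.223). At 0 hpf the log2 fold change was −0.46 (95% interval −0.93 to 0.01) and at 3.3 hpf −0.19 (−0.65 to 0.28), and it was 1.59 ± 0.35 higher at 24 hpf than at 3.3 hpf (interaction, adjusted p = 0.00289).

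COMMD3 lies next to bmi1a, which was left out of the set as a PRC1 subunit. At 24 hpf bmi1a was at 58.5, 57.8, 40.0, 60.0, 60.6 and 49.98 CPM in wild type and at 189, 196, 166, 159, 203, 213 and 207 CPM in mutants (log2 fold change 1.81 ± 0.13, adjusted p = 1.16e-05). On the other side of bmi1a, 4 rows before ezh2, SPAG6 (ENSDARG00000020158), a component of the ciliary axoneme, was at 5.42, 4.74, 5.18, 5.57, 4.84 and 5.99 CPM in wild type and at 7.76, 7.86, 8.91, 11.3, 9.36, 10.9 and 9.12 CPM in mutants. The genotypes did not overlap and the adjusted p was 0.0169, but the log2 fold change of 0.82 ± 0.15 was below the limit for a call. SPAG6 was named after its values were seen, as the only neighbour that passed the adjusted p but not the fold limit at any stage. At an adjusted p below 0.05 alone, 4 of 73 neighbours passed at 24 hpf, against 0.441% of all genes. Thus 3 adjacent rows, COMMD3, bmi1a and SPAG6, were each higher in every mutant library than in every wild-type library at 24 hpf. Reads that fall on overlapping genes are not counted for either. In the counts of the majority strand, which keep sense and antisense apart, COMMD3 was still called. These counts do not separate reads that run on from a neighbouring gene on the same strand. Whether such reads add to COMMD3 or SPAG6 was not tested. Whether the rises of COMMD3 and SPAG6 are tied to that of bmi1a was not tested.

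CMBL (ENSDARG00000073786), 18 rows before ezh2, encodes a hydrolase of the carboxymethylenebutenolidase family. At 24 hpf it was at 26.1, 31.9, 17.1, 41.2, 39.5 and 37.8 CPM in wild type and at 9.68, 8.91, 11.5, 11.5, 18.2, 17.5 and 18.0 CPM in mutants, and it fell with a log2 fold change of −1.24 ± 0.23 (adjusted p = 0.0242). Mutant replicates 5 to 7 overlapped wild-type replicate 3 and the other mutants lay below all wild-type libraries. The call was lost on leaving out any 1 of 8 of the 13 libraries, with adjusted p up to 0.0754. It held without the libraries of high ezh2 (log2 fold change −1.65, adjusted p = 0.0155). It was lost both within replicates 1 and 2 (log2 fold change −1.64, adjusted p = 0.0687) and within the later replicates (−1.12, adjusted p = 0.271). At 0 hpf CMBL was at 4.33, 4.29, 9.81, 5.67 and 11.5 CPM in wild type and at 2.03, 2.37, 3.61, 2.80, 3.84 and 3.99 CPM in mutants. The genotypes did not overlap at 0 hpf, yet the log2 fold change of −1.19 ± 0.36 did not pass (adjusted p = 0.0718), and at 3.3 hpf it was −1.07 ± 0.36 (adjusted p = 0.107). At 0 hpf CMBL passed in 3 of 10 alternatives. These were DESeq2 (adjusted p = 0.00969), the batch term (adjusted p = 0.0124) and 1 fit of all libraries (adjusted p = 0.00729). At 3.3 hpf it passed in 2 of 10, DESeq2 (adjusted p = 0.0205) and 1 fit of all libraries (adjusted p = 0.015).

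No neighbour passed an adjusted p of 0.05 in the same direction at all 3 stages by edgeR, out of 58 tested at all 3, against 7 of 14640 genes (0.0478%). At an unadjusted p below 0.05 there were 2, CCT5 and CMBL, against 133 genes (0.908%). With DESeq2 there was 1, CMBL, against 24 genes in all.

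The rows on either side of ezh2 were read at high levels and passed no test. PDIA4, a disulfide isomerase of the endoplasmic reticulum and the first row before ezh2, had log2 fold changes of −0.33 (95% interval −0.86 to 0.19), −0.06 (−0.43 to 0.32) and 0.28 (−0.13 to 0.69) at 0, 3.3 and 24 hpf. CUL1, the scaffold of SCF ubiquitin ligases and the first row after ezh2, had log2 fold changes of −0.10 (−0.41 to 0.20), 0.06 (−0.22 to 0.34) and 0.14 (−0.11 to 0.38). All of these intervals lie within a log2 fold change of 1 in size. Within replicates 1 and 2, PDIA4 had a log2 fold change of −1.12 at 0 hpf (adjusted p = 0.0654). Mean levels of CUL1 were 152 ± 19.2 CPM (SD, n = 5) in wild type and 142 ± 21.8 CPM (SD, n = 6) in mutants at 0 hpf. The second row before, si:dkey-117j14.6, had at most 2 counts in any library at the earlier stages. At 24 hpf it had a log2 fold change of −1.23 (−2.90 to 0.44). Its direction differed between sets, with 1.46 within replicates 1 and 2 (adjusted p = 0.241) and −2.22 within the later replicates (adjusted p = 0.866). The second row after, si:dkey-117j14.7, had log2 fold changes of −0.18 (−0.98 to 0.62) at 0 hpf and −0.04 (−0.85 to 0.78) at 3.3 hpf. The third row before, ENSDARG00000099162, had log2 fold changes of 1.49, 0.89 and 0.91, none of which passed with edgeR (adjusted p = 0.169, 0.423 and 0.865). With DESeq2 it passed at 0 hpf (log2 fold change 1.54, adjusted p = 0.0459). Within replicates 1 and 2 it passed at 0 hpf, with a log2 fold change of 3.76 (adjusted p = 0.019), against 0.72 within the later replicates, where wild type was at 0.968 to 1.30 CPM.

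**Figure D3:**
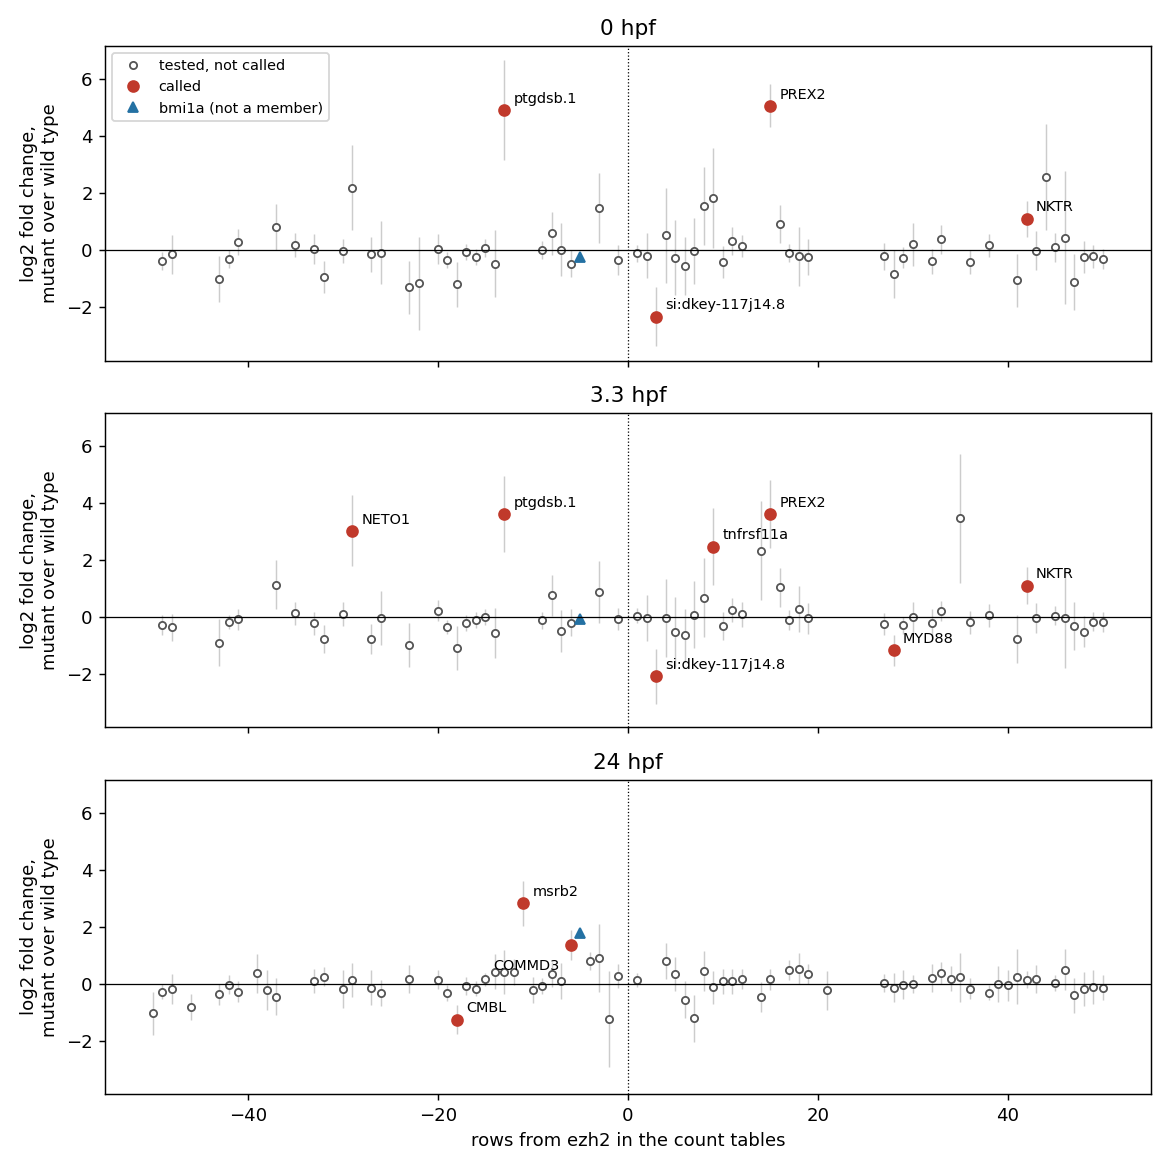
Log2 fold change of MZezh2 mutants over wild type for each tested neighbour at its number of rows from ezh2 (dotted line), in one panel per stage, with bars for the 95% interval, called genes in red and bmi1a as a blue triangle. Called genes lie on both sides at 0 and 3.3 hpf, and at 24 hpf msrb2, COMMD3 and CMBL lie 11, 6 and 18 rows before ezh2.

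The genotype effect differed between 3.3 and 24 hpf in 7 of 83 neighbours (8.43%), against 5.09% of 21709 genes, of which 59 moved up and 1046 down. Beside PREX2, ptgdsb.1, NETO1 and COMMD3 these were crispld1a, ARMC3 and SOCS6, which are named because the count is small and were chosen after their values were seen. SOCS6, a suppressor of cytokine signalling 32 rows before ezh2, was at 19.7 to 32.7 CPM in wild type and 9.86 to 18.5 CPM in mutants at 3.3 hpf, without overlap (log2 fold change −0.75, adjusted p = 0.0705). At 24 hpf the log2 fold change was 0.26 (adjusted p = 0.864), and the difference between the stages was 1.05 ± 0.29 (adjusted p = 0.0268). ARMC3, an armadillo repeat gene 10 rows before ezh2, had 1 to 4 counts per wild-type library and 6 to 15 per mutant library at 3.3 hpf, while at 24 hpf it was at 5.89 ± 1.62 CPM (SD, n = 6) in wild type and 5.01 ± 1.03 CPM (SD, n = 7) in mutants. The fall in the genotype difference was 2.38 ± 0.56 on the log2 scale (adjusted p = 0.00688). The gene crispld1a, of the cysteine-rich secretory protein family, 36 rows before ezh2, had 3, 1, 0, 1 and 0 counts in wild type and 5, 10, 10, 16, 18, 4 and 7 in mutants at 3.3 hpf. Its genotype difference fell by 3.78 ± 1.13 (adjusted p = 0.0416), a call that was lost with the majority strand and with no filter on low counts.

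One further gene had at most 2 counts in every wild-type library at 0 hpf and no overlap in CPM between genotypes there. PLCD1, a phospholipase C gene 34 rows after ezh2, had 2, 0, 0, 2 and 2 counts in wild type and 4, 97, 7, 3, 2 and 12 in mutants at 0 hpf, most of them in mutant replicate 2. At 3.3 hpf the same replicate number held 93 of its counts, the other mutants had 1 to 7 and wild type had 0 to 7. PLCD1 did not pass the filter of the edgeR fits at these stages. DESeq2 and 1 fit of all libraries called it higher in mutants at 0 hpf, and neither called it at 3.3 hpf. At 24 hpf PLCD1 was at 75.5 ± 25.2 CPM (SD, n = 6) in wild type and 85.9 ± 13.9 CPM (SD, n = 7) in mutants, with a log2 fold change of 0.19 (95% interval −0.25 to 0.62).

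Of the neighbours tested but not called, 42 of 60 at 0 hpf, 40 of 57 at 3.3 hpf and 60 of 70 at 24 hpf had log2 fold changes under 0.5 in size. Their log2 fold changes ranged from −1.30 to 2.57, from −1.07 to 3.47 and from −1.23 to 0.91, and 11, 5 and 3 of them were 1 or more in size without passing the adjusted p. The median size of the log2 fold change over the tested neighbours was 0.33, 0.26 and 0.22 at 0, 3.3 and 24 hpf, against 0.27, 0.27 and 0.15 over all genes. Groups did not overlap in 8 tested neighbours at 0 hpf (12.5%, against 7.15% of all genes), in 6 at 3.3 hpf (9.38%, against 5.73%) and in 4 at 24 hpf (5.48%, against 0.792%). The half-width of the 95% interval of the log2 fold change had a median of 0.60, 0.50 and 0.47 over the neighbours not called. These intervals are not adjusted over genes, and a call also needed a log2 fold change of at least 1. Differences larger than these half-widths could therefore also go uncalled.

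The number of called genes was then read by distance from ezh2, as a description without a test. At 24 hpf, 1 of 17 tested genes was called at 1 to 10 rows, 2 of 19 at 11 to 25 rows and 0 of 37 at 26 to 50 rows. Farther out there was 1 of 66 at 51 to 100 rows, 1 of 133 beyond that up to 200 rows and 0 of 265 from there up to 400 rows. All 3 called neighbours at 24 hpf were thus within 25 rows and before ezh2. At 3.3 hpf the shares were 12.5%, 11.8% and 9.68% in the 3 nearest classes and 10.5%, 7.94% and 4.2% in the farther ones. At 0 hpf they were 6.25%, 11.8% and 3.23%, then 5.36%, 6.35% and 5.19%. Levels that fell into separate groups of libraries (a gap of at least 1 on the log2 scale, at a mean of at least 5 CPM) were seen among mutants for 1 of 47 neighbours at 0 hpf (MYD88), 0 of 47 at 3.3 hpf and 0 of 57 at 24 hpf, against 7.96%, 5.52% and 3.14% of all genes. Among wild-type libraries this was 4 of 45, 3 of 44 and 0 of 53 neighbours, against 9.64%, 10.3% and 4.01%. In the farthest class, before ezh2, 35 of 98 genes that matched RefSeq lay on its chromosome, so that this class runs past the chromosome of ezh2.

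**Figure D4:**
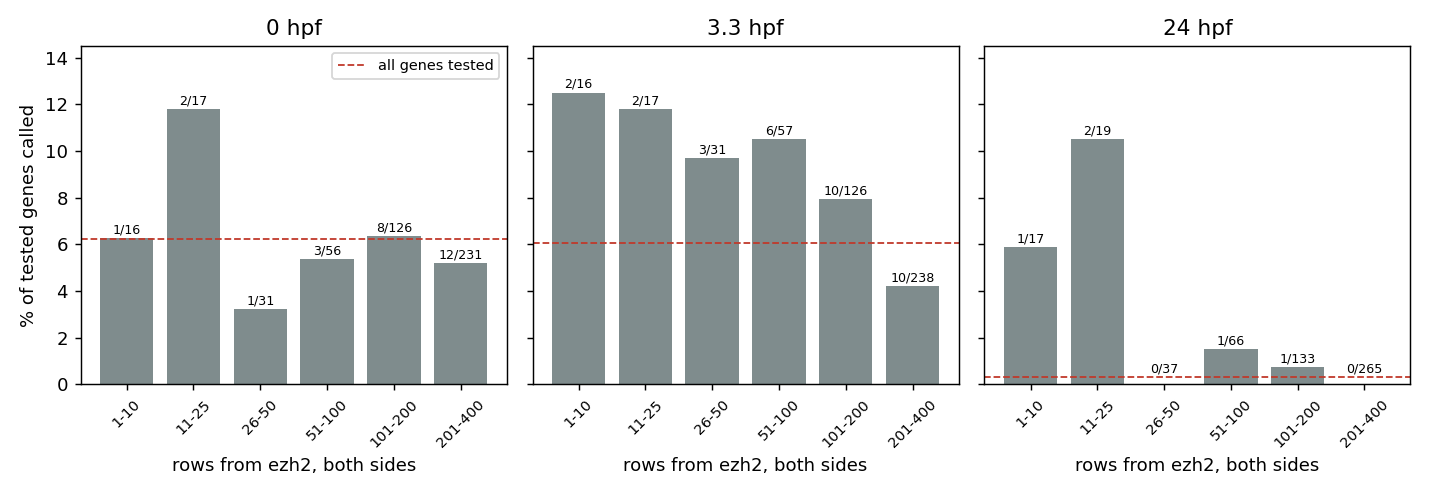
Percent of tested genes called, by number of rows from ezh2 on both sides together, at each stage, with called over tested genes above each bar and the percent over all genes as a dashed line. At 24 hpf called genes are 1 of 17 and 2 of 19 within 25 rows, against 0.324% of all genes.

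Genes of the Polycomb pathway were read from lists of subunits, which include ezh2 and bmi1a and otherwise lie elsewhere. Of 12 PRC2 genes, 11 were tested at each stage. JARID2 and PHF19, accessory subunits of PRC2, were higher in mutants at 0 and 3.3 hpf and none was called lower, while no PRC2 gene was called at 24 hpf. For JARID2 the log2 fold change was 4.58 ± 0.56 (adjusted p = 0.000624) at 0 hpf and 4.87 ± 0.53 (adjusted p = 0.000128) at 3.3 hpf, and the other row with that symbol had 0.30 and −0.04. Of 17 PRC1 genes, 16, 15 and 17 were tested at 0, 3.3 and 24 hpf. Of those tested, 0 were called at the earlier stages and 3 of 17 at 24 hpf, all of them higher. These were bmi1a, the other row with the symbol BMI1 (log2 fold change 1.36 ± 0.26, adjusted p = 0.0263) and a row with the symbol CBX8 (1.52 ± 0.18, adjusted p = 0.000529), and the background of higher calls was 6.06%, 5.88% and 0.223%. The other row with the symbol CBX8 had a log2 fold change of 0.26 ± 0.27 at 24 hpf and was not called.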

How the data were processed

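Deposited counts of reads per gene were used, which the authors made with STAR (version 2.5.2b in the submitters' processing notes) on GRCz10, per library and without pooling of replicates. Libraries were depleted of ribosomal RNA. At 24 hpf a pair of libraries per genotype was made with another kit and sequencer, and which ones is not given in the sources used here. The unstranded count column was used, and the reverse-strand column, with 81.2% to 98.5% of stranded counts, was an alternative. The lowest shares, 81.2% to 90.4%, were those of mutant replicate 4 at each stage and mutant replicate 5 at 3.3 hpf, all of low ezh2. Wild-type libraries had 93.7% or more. What sets these mutant libraries apart was not tested. Reads not counted on a gene stayed out of library sizes. They were unmapped (4.80% to 75.2% per library), multimapping (1.64% to 27.5%), outside genes (1.77% to 28.6%) or ambiguous (0.557% to 2.86%). Peak lists from chromatin immunoprecipitation were not used.

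Genotypes were compared at each stage with the two-sided quasi-likelihood test of edgeR 4.0.16 in R 4.3.3 (TMM normalization, filterByExpr, robust fit, no covariate) with Benjamini-Hochberg adjustment over all genes tested. Stages were compared by interaction contrasts in 1 fit of 6 groups. CPM used effective library sizes, and intervals cover 95%. DESeq2 1.42.0, unshrunken, and the other alternatives are given in the closing section. The fits were tested on simulated data. A gene was called when its adjusted p was under 0.05 and its log2 fold change was 1 or more in either direction, limits that the study also drew, with DESeq2. Genes were named if called at any stage or within 3 rows of ezh2, and those with at most 3 counts in every library of one genotype and no overlap were described per library. Symbols of marker and Polycomb lists without an exact match were matched without their final letter. The members and lists were chosen with earlier results of these data known. No sequence is printed.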

Additional observations from a re-analysis of the deposited data

Results flagged for a closer look

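In 3 of 84 groups of libraries checked, 1 library lay far from the others of its group. The limit was set so that, for normally distributed values, chance alone gives this in about 1 in 20 groups. ptgdsb.1 at 0 hpf was at 59.1 CPM in mutant replicate 5 and at 6.73 to 22.8 CPM in the other mutants. PREX2 at 3.3 hpf was at 9.75 CPM in wild-type replicate 2 and at 0.900 to 1.57 CPM in the other wild-type libraries, and at 56.1 CPM in mutant replicate 2 and 31.8 to 41.1 CPM in the other mutants.

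The genotype difference changed between 3.3 and 24 hpf in 7 neighbours by the interaction test of edgeR. On the log2 scale, as 24 hpf minus 3.3 hpf, the change was −3.38 for PREX2, −3.20 for ptgdsb.1, −2.86 for NETO1, −2.38 for ARMC3 and −3.78 for crispld1a, and 1.59 for COMMD3 and 1.05 for SOCS6.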

How the results depend on the processing

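The counts of 4, 7 and 3 called neighbours at 0, 3.3 and 24 hpf, which are 6.25%, 10.9% and 4.11% of those tested against 6.23%, 6.06% and 0.324% of all genes, varied with the fit. DESeq2, with its own filter and scaling, called 14 (18.2%, against 10% of all genes) at 0 hpf and 16 (20.8%, against 8.73%) at 3.3 hpf, and 1 neighbour (CMBL) of 24 genes the same way at all 3 stages. In 1 fit of all libraries there were 20 (24.1%, against 12%), 15 (18.1%, against 9.86%) and 1 (1.2%, against 0.0875%). A batch term for replicates 1 and 2 against the later ones called 8 at 0 hpf (12.5%, against 8.64%). With 100 rows on each side there were 7 at 0 hpf (5.83%) and 13 at 3.3 hpf (10.7%), and with 25 rows 4 at 3.3 hpf (12.1%), with the same background. Of settings chosen after seeing the data, replicates 1 and 2 alone gave 16 (24.2%, against 10.8%), 1 (1.54%, against 1.02%) and 0 (0%, against 0.147%), and the later replicates 1 at 24 hpf (1.33%, against 0.154%). Over all genes, the counts of 1027, 1024 and 61 became 2151, 1966 and 136 with DESeq2, 2604, 2141 and 19 in 1 fit of all libraries, and 828, 711 and 30 without the mutant libraries of high ezh2. The cause of these differences was not tested.

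Replicate numbers paired the libraries only in part. Deviations of same-numbered libraries correlated at 0.0688 to 0.601, 0.0188 to 0.582 and −0.0208 to 0.771 at the 3 stages. Of these, 2 of 5, 2 of 5 and 3 of 6 correlated best with their own number, among them replicate 1 at every stage. With the replicate block, 7 (10.9%, against 6.17%), 7 (10.9%, against 5.68%) and 3 (4.11%, against 0.51%) neighbours were called. Both NKTR calls were lost, NETO1 at 0 hpf was gained, and the log2 fold change of ezh2 was −3.98, −5.43 and −1.55, passing at 24 hpf (adjusted p = 0.00783).

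ezh2 at 24 hpf passed the test with DESeq2 (−1.30), a batch term (−1.37), the majority strand (−1.51), replicates 1 and 2 (−1.75) and without the mutant libraries of high ezh2 (−2.08). At 0 and 3.3 hpf it passed without those libraries (−6.50 and −6.30) and within replicates 1 and 2 (−5.80 and −5.93). Leaving out 1 library at a time gave 3 to 5, 5 to 8 and 1 to 3 called neighbours, with 1 without wild-type replicate 2 at 24 hpf, and a log2 fold change of ezh2 of −1.42 to −0.73, −2.51 to −1.83 and −1.48 to −1.17. Of 871 values of named genes under alternatives, 53 lost and 15 gained the call and 803 kept their side of it. Many of the 871 belong to genes and stages without a call to lose. The 53 lost calls over 871 values are therefore not the rate at which calls were lost, which is higher. Of the lost calls, 9 were lost within replicates 1 and 2 and 6 within the later replicates. No called value changed sign, and 28 values that were not called did. Genes with few counts limit the early stages, where 64 of 99 neighbours could be tested.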
